A study of Mus musculus with 7 samples.

Results

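The regions described here carried a peak of CTCF and a peak of CTCFL in both cell lines studied. All peaks of 4 deposited lists (CTCF and CTCFL in 3T3 cells, CTCF and CTCFL in P19 cells) were pooled, and peaks that overlapped by at least 1 bp were merged into union regions. Of 65700 union regions, 1353 held at least 1 peak of each list, 2.06% (95% interval 1.95 to 2.17). These 1353 regions are called the members below. Regions with peaks of 3 lists numbered 3757, and 39448 regions had a peak of a single list.

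The series mapped both factors by chromatin immunoprecipitation and sequencing in mouse NIH3T3 fibroblasts (3T3) and in P19 embryonal carcinoma cells. All 4 libraries used here came from cells with the stable integrates pBI-EGFP-FLAG-mCtcfl and pTA-N, the first named for a FLAG-tagged mouse Ctcfl. The antibody was N2.2 for CTCF and S6 for CTCFL. The labels give culture in doxycycline at 2 µg/ml and its removal for 48 h as the induction, in wording shared by all 7 samples of the series. Titles name the P19 cells as controls, which leaves the induction of CTCFL in P19 unclear. Labels do not say whether a line is 1 clone. The 3T3 libraries without the construct and the P19 input library were not analysed here, so neither CTCFL list was set against cells without the construct.

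CTCF is a zinc-finger protein that binds DNA at many sites shared by most cell types, stops cohesin as it extrudes chromatin loops and insulates genes from distant enhancers. CTCFL, also called BORIS, is its paralogue of male germ cells, with a closely similar array of zinc fingers between unlike ends of the protein. Because the fingers are alike, CTCFL made in other cells can bind sites that CTCF also binds. Regions with peaks of both factors in both cell lines are the most widely shared class in these data. Whether the fingers account for the shared peaks was not tested.

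Each group had 1 library. No difference below has a replicate check, no p-value is given, and intervals are exact (Clopper-Pearson, or order statistics for a median) and cover counting error only, since neighbouring regions are not independent. Read depth is unknown. A score is the authors' value for a peak, taken to be a p-value on a −10 log10 scale, and is used only within its list. A rank is the place of a peak's score in its own list, from 0% for the lowest to 100% for the highest, and a region takes the highest scoring of its peaks of a list. Membership required a peak in every list, and a peak requires a score of about 50, so all scores and ranks of the members describe them and test nothing.

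The members were a small part of the long lists and a larger part of the short one. Of the regions with P19 CTCFL, 23.3% (22.2 to 24.4) were members. Of those with 3T3 CTCFL, 8.58% (8.15 to 9.03) were. P19 CTCF regions were members in 4.20% of cases (3.98 to 4.43), and 3T3 CTCF regions in 3.03% (2.87 to 3.19). The P19 CTCFL list, with 5866 peaks, was the shortest, and the 3T3 CTCF list, with 45653, the longest.

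Most members were simple. In 1055 members, 78.0% (75.7 to 80.2), each list had exactly 1 peak, and another 198 held 5 peaks. The region with most, 9 peaks, was also the widest at 4349 bp (chr1:88421360-88425708). In that region 3T3 CTCFL had 3 peaks and every other list had 2. Its scores were 2889 for 3T3 CTCF, 2042 for 3T3 CTCFL, 245 for P19 CTCF and 295 for P19 CTCFL, and 666 bp were covered in all 4 lists. Several peaks of 1 list were commonest for 3T3 CTCFL, in 195 members (14.4%, 12.6 to 16.4), and 3T3 CTCF, in 144 (10.6%, 9.05 to 12.4). They were rarer for P19 CTCFL, in 36 (2.66%), and for P19 CTCF, in 30 (2.22%). This contrast of the lines was not limited to the members. In all, 16764 peaks of 3T3 CTCFL lay in 15762 regions, and 45653 of 3T3 CTCF in 44633. For P19, 5866 CTCFL peaks lay in 5816 regions and 32277 CTCF peaks in 32204, a smaller surplus of peaks. Over the whole lists, peaks were narrower in 3T3, with a median width of 342 bp for CTCF and 283 bp for CTCFL. In P19 it was 636 bp and 581 bp. The strongest peaks of the members differed less for CTCF, with medians of 676 bp in 3T3 and 721 bp in P19. For CTCFL they were 396 bp and 655 bp.

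Of the members, 1279 had at least 1 base covered by a peak of every list, 94.5% (93.2 to 95.7). This common stretch had a median length of 328 bp and ran from 4 bp (chr7:88907623-88908809, common part chr7:88908446-88908449) to 1094 bp (chr11:95119704-95121565, common part chr11:95119848-95120941). At the chromosome 11 region the scores were 3100 for 3T3 CTCF, 658 for 3T3 CTCFL, 609 for P19 CTCF and 230 for P19 CTCFL, all in the top 10% of their lists. The other 74 members were joined only through chains of overlapping peaks. They were wider (median 1369 bp against 950 bp), more often held over 4 peaks (43.2% against 20.8%), and had lower median ranks in each list, for example 78.1% against 96.3% for 3T3 CTCF. A wide example was chr4:62874709-62877577, where 8 peaks spanned 2869 bp and the strongest peaks of the lists lay up to 1771 bp apart.

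Members crowded at the top of the 3T3 CTCF list and spread more widely over the shorter lists. Ranks are not compared between lists as strengths, because the members are 3.03% of the regions of the longest list and 23.3% of those of the shortest, over whose ranks they have to spread. The median rank was 96.1% for 3T3 CTCF, 87.3% for 3T3 CTCFL, 78.7% for P19 CTCF and 71.7% for P19 CTCFL. The median scores behind them were 1658, 232, 210 and 101 in the same order. Scores of at least 100 were reached by 1320 members for 3T3 CTCF, 97.6% (background over all regions of that list 53.3%). For 3T3 CTCFL 1015 of the 1353 members reached it (72.6% to 77.3%, background 36.5%). For P19 CTCF 1087 members did, 80.3% (background 59.0%), and for P19 CTCFL 681, 50.3% (background 28.9%).

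The top 10% of the 3T3 CTCF list held 1029 members, 76.1% (background 10.2%). The top 10% of 3T3 CTCFL held 590, 43.6% (background 10.5%). For P19 CTCF the count was 438, 32.4% (background 10.0%), and for P19 CTCFL it was 311, 23.0% (background 10.1%). The top 10% of P19 CTCFL held 585 regions in all, so most members could not be in it, whereas that of 3T3 CTCF held 4545. In 3T3 CTCF 300 members scored 3100 or more, a range in which most scores are exactly 3100 and do not rank peaks, out of 567 regions of that list that did.

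**Figure D1:**
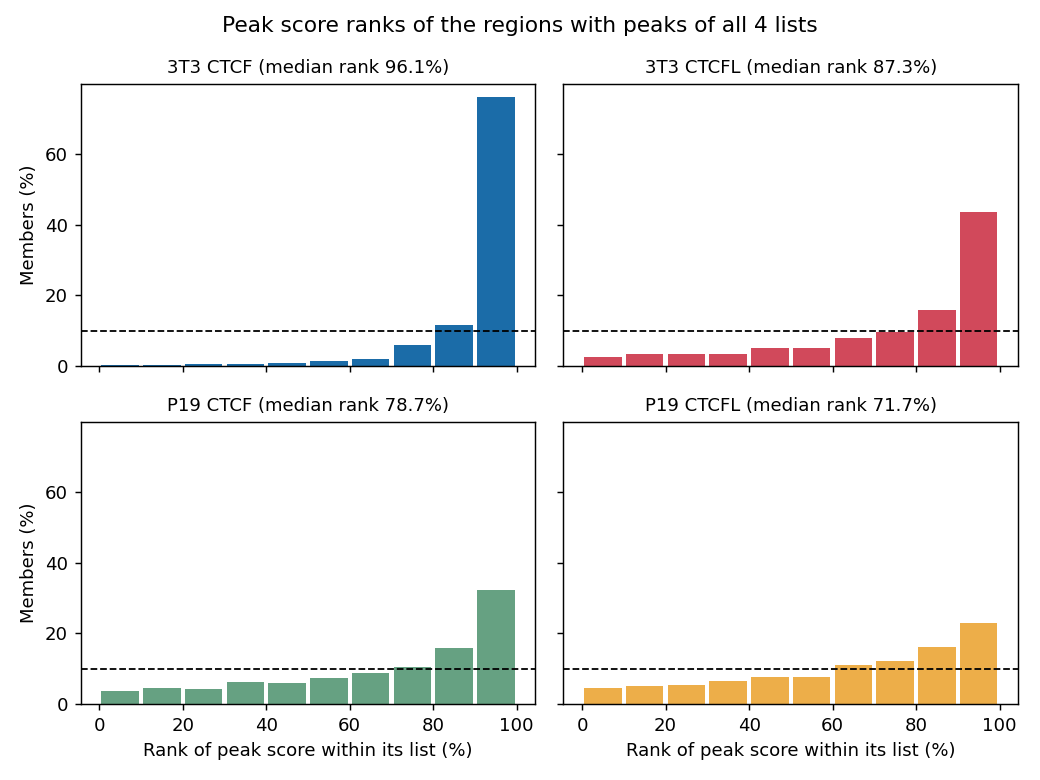
Ranks of the 1353 members within each peak list (x axis, percent of the list, 100 highest) and the share of members in each 10% of the ranks (y axis); the dashed line marks 10%, the share if members were spread evenly. In 3T3 CTCF 76.1% of members fall in the highest 10%, in P19 CTCFL 23.0%, where 585 regions in all could be.

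The top 10% of all 4 lists held 77 members, 5.69% (4.52 to 7.06), a count that the 585 regions in the top 10% of P19 CTCFL limit from the start. Of the rest, 255 were in the top 10% of 3 lists, 483 of 2, 329 of 1 and 209 of none. All 77 had a base common to the 4 lists, and they lay on 17 of 20 chromosomes. All 4 scores reached 60 at 1073 members, 100 at 449 and 200 at 81.

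The strongest member by mean rank over the lists was chr11:77845209-77846293, with scores of 3100 for 3T3 CTCF, 1863 for 3T3 CTCFL, 677 for P19 CTCF and 636 for P19 CTCFL. The next was chr10:43260270-43261312, with 3100, 1661, 803 and 374 in the same order. Both stood in the top 1% of every list, and in both the peak midpoints of the 4 lists lay close together, at most 127.5 bp and 132 bp apart.

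Chromosome 15, with 86 of all members (6.36%), held 4 of the 12 members with the highest mean rank. The 12 were picked by their scores, and nothing is read from their chromosomes. At chr15:97614406-97615400 the scores were 3100, 3100, 515 and 663, and at chr15:101930504-101931520 they were 3100, 3100, 593 and 338. Both scored 3100 in each 3T3 list. At chr15:82089688-82090545 the scores were 3100, 897, 953 and 679, and at chr15:89026402-89027401 they were 3100, 1202, 564 and 361.

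Chromosome 2, with 7.17% of all members, held 3 of the 12. They were chr2:29932857-29934028 (3100, 2167, 576 and 380), chr2:29474675-29475864 (3100, 3100, 699 and 278) and chr2:119372335-119373205 (3100, 931, 1035 and 285). The remaining 3 were chr8:87162554-87163882 (3100, 2643, 658 and 317), chr9:100543096-100544801 (3100, 2225, 510 and 299) and chr9:21350749-21352039 (3100, 1557, 815 and 252). The chromosome 8 region and the first chromosome 9 region held 6 peaks, and the other 10 of the 12 held 4.

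The member that led a single list was not always strong in the others. The highest 3T3 CTCF score among members, 3227 at chr7:132724576-132725442, came with a P19 CTCF score of 478 but CTCFL scores of only 64.9 in 3T3 and 64.9 in P19. CTCF was near the top of both lists there and CTCFL in the lower part of both. The highest P19 CTCF score, 1522 at chr1:183818781-183819504, came with 3100 for 3T3 CTCF, 477 for 3T3 CTCFL and 249 for P19 CTCFL, all in the top 10%. The highest 3T3 CTCFL score, 3205 at chr4:125998272-125999399, came with 3100 for 3T3 CTCF, 271 for P19 CTCF and 300.2 for P19 CTCFL. The highest P19 CTCFL score, 1059 at chr11:97420653-97421557, came with 721 for P19 CTCF, 91.2 for 3T3 CTCF and 112 for 3T3 CTCFL. This region was thus among the first of the P19 lists and at a rank of 42.7% in 3T3 CTCF and 68.7% in 3T3 CTCFL.

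At the weak end, chr17:88196285-88197645 had the lowest mean rank, 18.0%, with scores of 70.5 for 3T3 CTCF, 51.4 for 3T3 CTCFL, 71.8 for P19 CTCF and 57.8 for P19 CTCFL. It was followed by chr4:136832826-136833475 (74.5, 62.4, 72.9 and 57.3), chr9:64026275-64027577 (78.6, 50.3, 93.1 and 60.5) and chr17:45685401-45686616 (79.3, 92.5, 66.7 and 54.4). No base of the last region was common to the 4 lists. Some members that only just held all 4 peaks ranked high in the whole 3T3 CTCF list, where the median rank of all members was 96.1%. At chr17:29046214-29047605 the 3T3 CTCFL score was 50.02 and the 3T3 CTCF rank 94.3%, and at chr9:103396489-103397101 the P19 CTCFL score was 50.05 and the 3T3 CTCF rank 94.7%. At chr11:69833983-69834905 the score that barely passed was that of P19 CTCF, 50.2, and the 3T3 CTCF rank was 79.3%.

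Just outside the rule lay regions of 3 lists with a peak of the missing list close by. The closest was chr7:129210238-129211408, where a P19 CTCF peak lay 3 bp away and the scores were 1127 for 3T3 CTCF, 2623 for 3T3 CTCFL and 203 for P19 CTCFL. At chr6:124853337-124854158 a P19 CTCFL peak lay 4 bp away, and at chr1:74849341-74850353 a 3T3 CTCFL peak lay 15 bp away. Such near misses were few among all regions with 3 lists, but their share varied with the missing list. Of the 3757 regions with 3 lists, 54 had a peak of the missing list within 200 bp and 229 within 1000 bp, 6.10% (5.35 to 6.91). The share within 1000 bp was 29.4% (15.1 to 47.5, 10 of 34 regions) where 3T3 CTCF was missing. It was 8.90% for P19 CTCF, 6.93% for 3T3 CTCFL and 3.10% for P19 CTCFL. The list most often missing was 3T3 CTCFL, in 1716 regions, then P19 CTCFL in 1355, P19 CTCF in 652 and 3T3 CTCF in 34.

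Within 3T3 the strengths of the 2 factors ran together over the members, and those of the other pairs of lists much less. Spearman's rho of the ranks over the 1353 members was 0.67 for 3T3 CTCF with 3T3 CTCFL. It was 0.28 for CTCF in 3T3 with CTCF in P19, 0.24 for CTCFL in 3T3 with CTCFL in P19, and 0.21 for the 2 factors in P19. For the pairs that differ in both factor and line it was 0.08 (3T3 CTCF with P19 CTCFL) and −0.05 (3T3 CTCFL with P19 CTCF). Members are not replicates, the 2 lists of a line may share a control library, and ties at 3100 and the crowding of members at the top of the 3T3 CTCF list narrow the range of ranks.

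Other classes of regions gave these values for the pairs they hold. The 3T3 pair had a rho of 0.65 over the 652 regions with both factors in 3T3 and CTCFL alone in P19, near the 0.67 of the members. It had 0.51 over the 1355 regions with CTCF in both lines and CTCFL in 3T3 only, and 0.49 over the 5984 with both factors in 3T3 and nothing in P19. The P19 pair had 0.13 over the 1716 regions with CTCF in both lines and CTCFL in P19 only. For CTCF between the lines rho was 0.26 over the 13987 regions with CTCF in both lines and no CTCFL, near the 0.28 of the members.

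**Figure D2:**
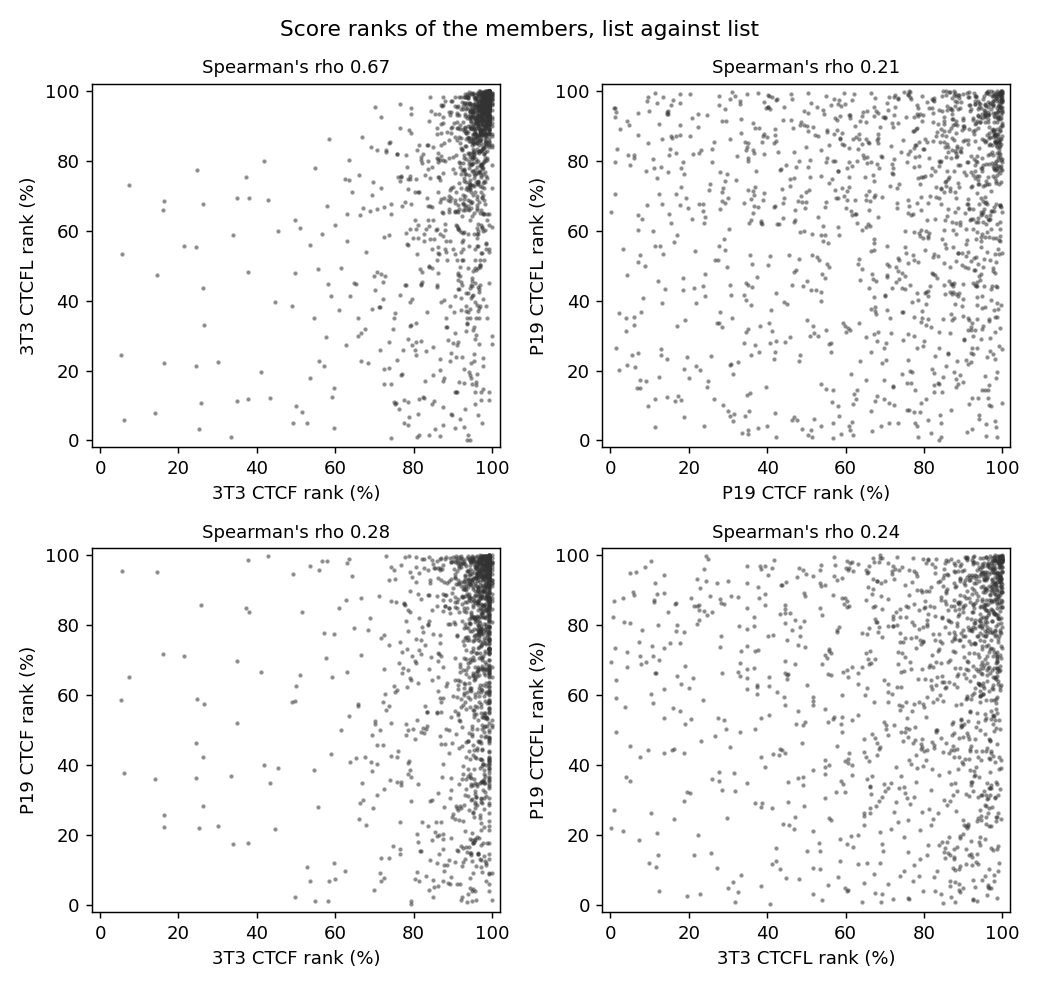
Each point is 1 of the 1353 members, placed by its score ranks (percent of the list) in 2 lists; the upper panels pair the factors within 3T3 and within P19, the lower panels pair the lines for CTCF and for CTCFL. Points in the 3T3 panel crowd into the upper right corner (rho 0.67), and those of the P19 panel are widely scattered (rho 0.21).

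Between the lines, CTCF ranked higher in 3T3 than in P19 by 25 points or more at 504 members, 37.3% (background over all regions with CTCF in both lines 25.6%). It ranked higher in P19 by as much at 26 members, 1.92% (background 17.4%). CTCFL ranked higher in 3T3 by 25 points or more at 430 members, 31.8% (background over all regions with CTCFL in both lines 39.4%), and higher in P19 at 191, 14.1% (background 12.3%). These contrasts use the scores that chose the members and set ranks of lists of unequal length against each other, so nothing is read from them about strength or from their distance to the background.

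The members most unlike between the lines were of several kinds. At chr2:18597855-18598481 both factors were strong in 3T3 and weak in P19, with scores of 3192 for 3T3 CTCF and 579 for 3T3 CTCFL against 51.1 for P19 CTCF and 60.2 for P19 CTCFL. Its 4 midpoints lay within 36.5 bp of each other, and 429 bp were common to the 4 lists. At chr4:43394611-43395435 CTCF was weak in P19 and CTCFL was not. The scores there were 3100 for 3T3 CTCF and 1388 for 3T3 CTCFL, 53.4 for P19 CTCF and 168 for P19 CTCFL, the last within the top 10% of its list. P19 CTCF was also near its lowest scores at chr2:83484305-83485214 (1569, 802, 51.3 and 128) and chr11:83285745-83287002 (1326, 203, 50.9 and 117).

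In the opposite direction, chr2:172922602-172923529 had CTCF scores of 53.6 in 3T3 and 377 in P19, and CTCFL scores of 84.8 in 3T3 and 223 in P19. Both factors thus ranked higher in P19 there. At chr17:48168460-48169515 the CTCF scores were 84.8 in 3T3 and 518 in P19, and the CTCFL scores 57.9 and 152. The other pair in which CTCF was ranked higher in P19 by most was chr19:7182735-7183596 (CTCF 60.9 in 3T3 and 372 in P19) and chr4:6918010-6918983 (71.4 and 252).

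For CTCFL, the widest gap in favour of 3T3 was at chr19:47538199-47539599, with scores of 1046 in 3T3 and 50.7 in P19. There CTCF scored 3100 in 3T3 and 87.8 in P19. The widest gap in favour of P19 was at chr4:125598532-125599987, with CTCFL scores of 52.3 in 3T3 and 206 in P19, where no base was common to the 4 lists and midpoints lay up to 909 bp apart. At chr1:88075132-88076134, CTCFL scored 53.1 in 3T3 and 211 in P19 beside CTCF ranks of 99.9% in P19 and 78.7% in 3T3. At chr8:87521669-87522557 it scored 54.9 and 239 beside a 3T3 CTCF rank of 93.1%, a strong 3T3 CTCF site with a weak 3T3 CTCFL peak.

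The balance of the factors varied as well. CTCF outranked CTCFL by most at chr3:89199786-89200851, where the CTCF scores were 605 in 3T3 and 281 in P19 and the CTCFL scores 53.8 and 56.6. At chr11:96824679-96825507 the CTCF scores were 334 and 401 and the CTCFL scores 58.3 and 55.0. CTCFL outranked CTCF by most at chr9:40494116-40495022, where the CTCFL scores were 143 in 3T3 and 206 in P19 and the CTCF scores 116 and 50.95. CTCFL also had the higher rank in both lines at chr15:101807356-101808354, with CTCFL scores of 576 and 256, both in the top 10%, and CTCF scores of 239 and 65.2.

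The share of common CTCF regions that were members varied with CTCF rank in each line. Membership rests on the peak calls of these same libraries, and the CTCF lists differ in length. The shares are therefore a description, and nothing is read from the contrast of the lines. Of 18411 regions with CTCF in both lines, 7.35% (6.98 to 7.74) were members. In the top 10% of the 3T3 CTCF list the share was 28.6% (27.1 to 30.1), and among those ranked below 25% it was 0.570% (0.304 to 0.972). By P19 CTCF rank it was 15.5% (14.2 to 16.9) in the top 10% and 5.15% (4.35 to 6.05) below 25%. Regions in the top 10% of both CTCF lists were members in 380 of 992 cases, 38.3% (35.3 to 41.4). Those in the top 10% in 3T3 and below 25% in P19 still were in 23.1% (18.6 to 28.1), whereas those in the top 10% in P19 and below 25% in 3T3 were in 1.37% (0.166 to 4.86), 2 of 146.

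Common CTCF regions with CTCFL in P19 more often had CTCFL in 3T3 as well, by the values that define the members. With a P19 CTCFL peak, 44.1% (42.3 to 45.9) of common CTCF regions also had 3T3 CTCFL, and without one 8.83% (8.39 to 9.29) did. In the top 10% of 3T3 CTCF these shares were 81.5% (79.2 to 83.6) and 41.2% (39.2 to 43.2). Below a 3T3 CTCF rank of 25% they were 7.78% (4.21 to 12.9) and 0.946% (0.579 to 1.46). The share was higher with P19 CTCFL at both ends of the 3T3 CTCF list. These counts are those of the membership rule itself, so they describe the members and test no link between the CTCFL lists.

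**Figure D3:**
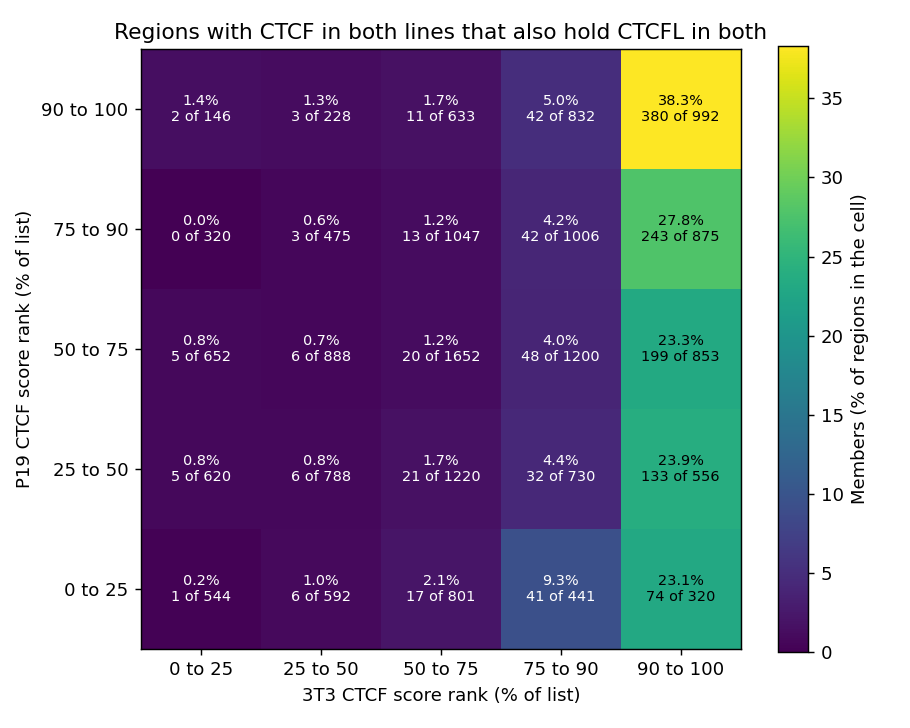
Regions with CTCF in both lines, grouped by the score rank of CTCF in 3T3 (x axis) and in P19 (y axis), each in percent of its list; colour and text give the share that also held CTCFL in both lines, with counts. The right column, the top 10% of 3T3 CTCF, holds 23.1% to 38.3%, and the cell for the top 10% in P19 and the lowest group in 3T3 holds 1.37%. Membership rests on the same peak calls, so the shares are a description.

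Peak midpoints of the 4 lists seldom coincided. A midpoint is the middle of a peak and not a measured place of binding. Median peak widths at members ran from 396 bp to 721 bp, so distances between midpoints do not show where the factors bound. All 6 distances between peak midpoints were within 50 bp at 39 members, 2.88% (2.06 to 3.92), within 100 bp at 231 and within 200 bp at 712, 52.6% (49.9 to 55.3). By their medians, peaks of the 2 factors in a line were closer than peaks of 1 factor in the 2 lines. The median distance of CTCF from CTCFL was 74.5 bp in 3T3 (69.5 to 79.5) and 78.5 bp in P19 (73.5 to 83.0). The median distance between the lines was 113.5 bp for CTCF (105.5 to 121.5) and 91.0 bp for CTCFL (85.5 to 99.5). Unlike factors in unlike lines lay about as far apart as 1 factor in the 2 lines. The median was 108.0 bp (98.0 to 114.5) for 3T3 CTCF with P19 CTCFL. For 3T3 CTCFL with P19 CTCF it was 98.5 bp (90.5 to 106.5). In 656 members, 48.5% (45.8 to 51.2), the mean of the within-line distances was the smaller one. In 379, 28.0% (25.6 to 30.5), the mean of the between-line distances was, and in 318 they were equal. Equal means do not stand for a lack of preference. For 4 points on a line they arise when the remaining pairing is closest, 3T3 CTCF with P19 CTCFL and 3T3 CTCFL with P19 CTCF. No reference share was set for these outcomes. CTCF and CTCFL were displaced to the same side between the lines at 864 members, 63.9% (61.2 to 66.4). Where both were displaced by over 200 bp, the side was the same in 116 of 141 members, 82.3% (74.9 to 88.2).

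CTCF peaks lay further apart between the lines at members than at common CTCF regions without CTCFL, where the median was 59.0 bp (58.0 to 60.5). With CTCFL in P19 only it was 64.5 bp (60.5 to 67.5), and with CTCFL in 3T3 only 94.5 bp (87.5 to 99.0). The merging rule allows larger distances at members, where CTCFL peaks can join CTCF peaks that do not overlap. Distances over 500 bp were found at 4.95% of members and at 0.207% of common CTCF regions without CTCFL. Among members with a base common to all lists the median was 109.5 bp (102.5 to 118.0). Peak width moved with the CTCF distance, and its part in it was not tested beyond the groups of width given here. The 3T3 CTCF peak was 800 bp or wider at 494 members, 36.5%, and at 1.45% of common CTCF regions without CTCFL. Among peaks of that width the median distance was 213 bp (197 to 227.5) at members and 149 bp (117 to 186) without CTCFL. For 3T3 CTCF peaks under 400 bp it was 67.8 bp (51.5 to 78.0) and 58.0 bp (56.5 to 59.5), and the intervals overlapped. For peaks of 400 bp to under 600 bp it was 66 bp (56.5 to 72.5) and 58.0 bp, again with overlapping intervals. For 600 bp to under 800 bp it was 110 bp (97.0 to 124.5) at the 308 members and 68.0 bp (64.0 to 74.5) without CTCFL, and the intervals were apart. Members and regions with CTCFL in 3T3 only were much alike within widths, with 213 bp and 233.5 bp (209.5 to 265.5) at the greatest width. The 337 members with a CTCF displacement of 215 bp or more had a lower median P19 CTCF rank (67.8%) than the 341 with at most 48.5 bp (84.5%), and a higher 3T3 CTCFL rank (90.9% against 82.3%). Their 3T3 peaks were also wider, with medians of 1014 bp against 553 bp for CTCF and 560 bp against 327 bp for CTCFL. In P19 the widths were 719 bp against 733 bp for CTCF and 665 bp against 634 bp for CTCFL.

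**Figure D4:**
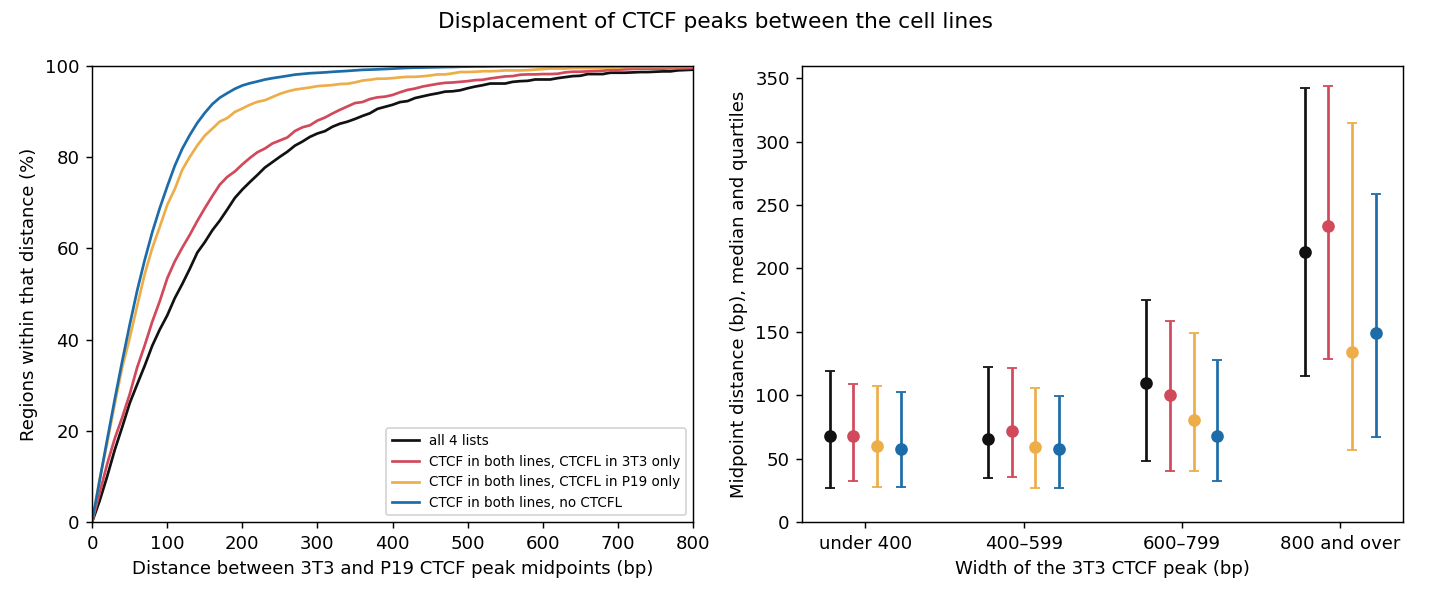
Left, the share of regions (y axis, percent) whose 3T3 and P19 CTCF peak midpoints lie within a given distance (x axis, bp), for members and for 3 similar classes. Right, the median distance with quartiles (bars, bp) by width of the 3T3 CTCF peak, in the same colours; members have a median of 113.5 bp over all widths, 67.8 bp under 400 bp and 213 bp at 800 bp and over.

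Position was not used to choose the members. Chromosome 11 held the most, 167 members or 12.3% (10.6 to 14.2), at 1.41 per Mb, followed by chromosome 5 with 108 and chromosome 2 with 97. Chromosome 19 had 78 members, 5.76% (4.58 to 7.14), at 1.34 per Mb, and X had 19, at 0.118 per Mb. The share on chromosome 11 exceeded that of common CTCF regions without CTCFL (7.29%) by 5.06 points (3.29 to 6.98), and that of regions with CTCFL in 3T3 only (8.41%) by 3.93 points (1.59 to 6.28). It differed from that of regions with CTCFL in P19 only (11.5%) by 0.80 points, with an interval from −1.54 to 3.19 that includes 0. The whole P19 CTCFL list had 12.02% of its peaks on chromosome 11, and the 3 other lists had 7.98% to 8.30%, so a high chromosome 11 share was not limited to the members.

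On chromosome 19 the share of members exceeded that of common CTCF regions without CTCFL (3.25%) by 2.52 points (1.30 to 3.93), and that of regions with CTCFL in P19 only (4.08%) by 1.69 points (0.107 to 3.32). The difference from regions with CTCFL in 3T3 only (4.21%) was 1.56 points, and its interval, −0.133 to 3.26, includes 0. On other chromosomes the share of members was below that of common CTCF regions without CTCFL, with intervals that exclude 0, by −1.58 points on chromosome 1 (−2.84 to −0.135), −1.69 on chromosome 6 (−2.76 to −0.426), −1.46 on chromosome 13 (−2.27 to −0.453) and −1.19 on chromosome 14 (−1.92 to −0.263). On chromosome 15 it was above, by 2.02 points (0.727 to 3.49). Against regions with CTCFL in 3T3 only, the share on chromosome 7 differed by −2.43 points (−4.43 to −0.430). Among common CTCF regions, members made up 11.8% (9.47 to 14.6) on chromosome 19, 11.1% (9.60 to 12.9) on chromosome 11 and 10.0% (8.09 to 12.2) on chromosome 15. The lowest shares were 4.93% on chromosome 13 (3.40 to 6.89) and 4.93% on chromosome 14 (3.25 to 7.15). Over 20 chromosomes and 3 classes, 60 such differences were computed with no adjustment.

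**Figure D5:**
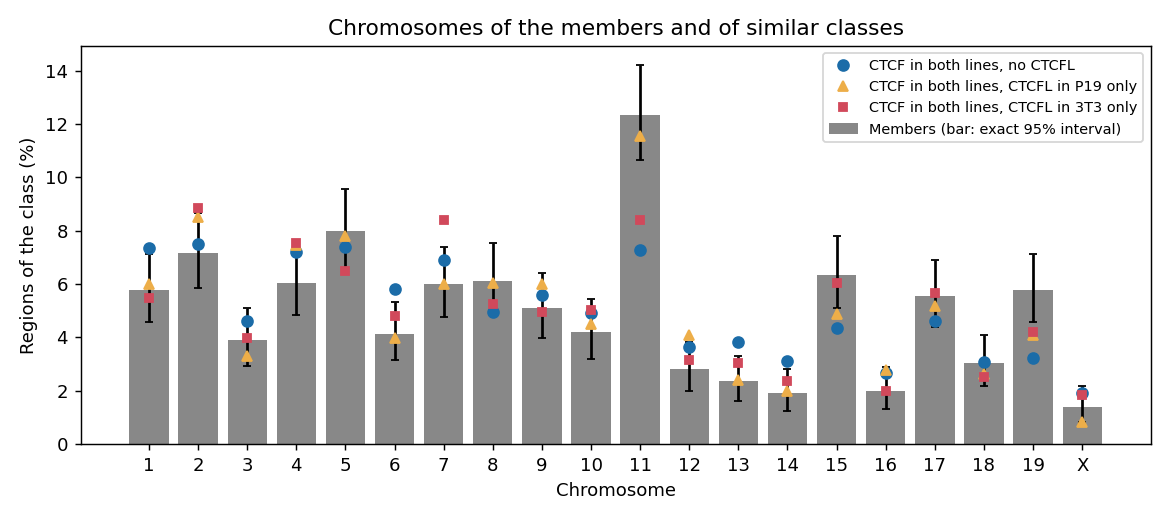
Share of the 1353 members on each chromosome (grey bars, percent, with exact 95% intervals), with the shares of 3 similar classes of regions as symbols. Chromosome 11 stands at 12.3% of members against 7.29% of common CTCF regions without CTCFL, and at 11.5% where CTCFL was found in P19 only.

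The spacing of the members was not set against an even spread along the genome. The nearest other member lay at a median distance of 215 kb (quartiles 60.2 and 743 kb), and 457 members, 33.8% (31.3 to 36.4), had another within 100 kb. Classes of similar size had similar values, 32.0% (29.5 to 34.6) for the 1355 regions with CTCFL in 3T3 only and 35.0% (32.8 to 37.3) for the 1716 with CTCFL in P19 only. Runs of neighbouring union regions that were all members were short. There were 1292 single members, 29 pairs and 1 run of 3, at chr5:148104373-148105209, chr5:148105415-148106310 and chr5:148110426-148111736. In that run 3T3 CTCF scored 3100, 463 and 1182, P19 CTCF 441, 325 and 174, 3T3 CTCFL 374, 72.1 and 171, and P19 CTCFL 117, 247 and 72.7. The first region led in 3 lists and the second in P19 CTCFL.

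The densest 1 Mb windows held 9 members each, at chr17:27000001-28000000, chr19:6000001-7000000 and chr8:73000001-74000000. They had 156, 131 and 143 union regions, so members were 5.77%, 6.87% and 6.29% of them. In the chromosome 19 window members ranked high in all lists, with medians of 96.3% for 3T3 CTCF, 88.1% for 3T3 CTCFL, 82.4% for P19 CTCF and 91.3% for P19 CTCFL. In the chromosome 17 window the medians were 87.7%, 74.8%, 75.1% and 61.8%, and in the chromosome 8 window 97.3%, 72.4%, 93.4% and 58.0%.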

How the data were processed

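The 4 deposited peak lists give chromosome, start, end and a peak score made by the authors' caller. No header names its scale, and it was taken as −10 log10 of a p-value because MACS 1.4 writes such scores and 50 was the lowest. Tools listed in the submitters' processing notes are Bowtie, FastQC, MACS 1.4 and SAMtools, and listed builds are mm9 and hg19, without saying which step used them. Per the labels' protocols, 10 ng of DNA went into each library. Pooling, settings, depth and the control library are not given in those sources. Positions are taken as mm9, counted from 1. The gene table at hand was of GRCm38.p6, and 10 of 20 chromosomes had peaks past its last gene, so planned work on genes, motifs, sequences and proteins was not done.

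Regions were merged at 1 bp of overlap, and bedtools 2.31.1 gave the same numbers of union regions and members. The scripts were tested on simulated data. Named regions are those with the highest or lowest mean rank (12 and 4), the top score of a list, the 4 largest rank differences each way between lines or factors, the 3 widest, the 3 with most peaks, 5 just inside and 5 just outside the rule, the longest run, the densest windows, and the extremes of the common stretch; not all are printed. Members, lists and this rule were chosen with earlier results of these data known. Intervals of differences combine the exact 95% intervals. Analyses used SciPy 1.17.1, pandas 2.3.3, numpy 2.4.6 and matplotlib 3.10.9 under Python 3.11.15. Alternatives were other overlap rules, peak widths, score limits, equal list lengths and autosomes only.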

Additional observations from a re-analysis of the deposited data

How the results depend on the processing

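No paired analysis was possible because a single library stood for every group, and for the same reason no replicate could be left out. The count of members, 1353, was 712 with all peak midpoints within 200 bp, 738 with scores of at least 75, 449 with scores of at least 100 and 444 with all lists as long as the shortest. The score limits and shorter lists remove weak peaks by construction. The share with a base common to all lists, 94.5%, was 100%, 96.1%, 96.4% and 97.3% in the same order, 69.5% with peaks resized to 200 bp, 90.6% with peaks up to 200 bp apart merged and 96.0% in regions of exactly 4 peaks. The share with another member within 100 kb, 33.8%, was 24.6%, 24.8%, 19.2% and 16.0% under the first 4 settings and 30.2% with resized peaks, and fewer members lie further apart by construction. The median CTCF distance between the lines, 113.5 bp, was 64.0 bp with midpoints within 200 bp, 87.0 bp with resized peaks, 126 bp with scores of at least 100 and 100 bp in regions of exactly 4 peaks. It was 66 bp for 3T3 CTCF peaks under 600 bp and 160.5 bp for wider ones. The chromosome 11 share, 12.3%, was 16.3% with scores of at least 100. The limit of 200 bp on midpoints caps the CTCF distance by construction, and peaks resized to 200 bp have to lie close to be joined. The causes of the remaining shifts were not tested. The settings on width and on exactly 4 peaks were chosen after seeing the data. Of 48 values of these 5 results, 25 lay inside the reported value's interval (for the count, within 1.5 times it). Of the rank medians and correlations, 60 values stayed and 20 moved, some past each other. With lists as long as the shortest, the median rank in the full list was 94.0% for P19 CTCF and 92.6% for 3T3 CTCFL, and rho was 0.33 for CTCFL between lines, 0.23 for the P19 pair and 0.20 for CTCF between lines. With scores of at least 100 the median rank was 89.8% for P19 CTCFL and 88.5% for P19 CTCF. Both settings set a floor under the ranks that differs by list. The rho of 3T3 CTCFL with P19 CTCF, −0.05, ranged from −0.09 to 0.02. The unknown depth limits every list.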

Other observations

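Regions with CTCF in both lines and CTCFL in either or both, the members among them, lay in denser surroundings than those without CTCFL. Within 50 kb of a member there was a median of 8 other union regions (quartiles 4 and 13), against 5 (2 and 8) for common CTCF regions without CTCFL. The median was 7 for regions with CTCF in both lines and CTCFL in a single line, in either line. A member stood alone within 50 kb in 2.59% of cases (1.81 to 3.58), and a common CTCF region without CTCFL in 6.30% (5.90 to 6.71). The share was 2.44% (1.68 to 3.40) with CTCFL in 3T3 only and 2.80% (2.07 to 3.69) with CTCFL in P19 only, within the interval of the members.

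The union region next to a member, on either side, was of much the same kinds as regions at large. Of 2706 such neighbours, 31.2% (29.4 to 32.9) had CTCF in 3T3 alone, against 29.5% of all regions, and 19.9% (18.4 to 21.4) had CTCF in both lines without CTCFL, against 21.3%. CTCF in P19 alone made up 16.2% (14.9 to 17.7) of the neighbours and 19.6% of all regions. Members themselves made up 2.29% of the neighbours (1.76 to 2.93) and 2.06% of all regions.

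Beyond the windows with 9 members, 6 windows of 1 Mb held 8 members. In one of them, chr15:102000001-103000000, the members had a median rank of only 39.2% in P19 CTCF but 91.9% in 3T3 CTCF, 83.6% in 3T3 CTCFL and 79.2% in P19 CTCFL. In another, chr19:5000001-6000000, the medians were 94.9% for 3T3 CTCF, 93.2% for 3T3 CTCFL, 85.5% for P19 CTCF and 80.9% for P19 CTCFL. These windows were singled out after their values were seen.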
